A study of Arabidopsis thaliana with 4 samples.

Results

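Wild-type leaf RNA lay in 1 channel of each of the 4 two-colour arrays of this series, and these 4 wild-type channels of 8 channels in all are described here. The channels were taken by label: wild type was in Cy3 on replicate 1 of each array pair and in Cy5 on replicate 2, where the dyes were exchanged. The partner on each array was RNA of an Arabidopsis thaliana plant carrying TaSK5, a wheat kinase of the GSK3/Shaggy-like family, under the 35S promoter, which is active in most plant tissues. One array pair held transformant OX7 and the other transformant OX17, independent plants of the first transgenic generation. Wild-type plants were ecotype Col-0, the background of both transformants, and carried no transgene. All RNA came from rosette leaves of 3-week-old, untreated plants, grown in soil at 22 °C under days of 16 h light and 8 h dark. The 2 arrays of a pair are repeat hybridisations, so each pair gives 1 wild-type RNA sample and the comparison is 1 against 1. It has no test and no p-value, and each value is given in both dyes in place of an SD. The sources used here do not say how many wild-type plants were pooled, when leaves were cut, or whether one RNA served both pairs. A difference between plants, between harvests and between RNA preparations therefore cannot be told apart.

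As background, untreated leaves of one genotype are not one fixed state. Genes of the circadian clock cycle through the day, and genes for sugar, nitrogen and light responses follow the plant's metabolism. A further class, the early stress genes, encodes calmodulin-like proteins, WRKY, ERF and zinc finger transcription factors and mRNA decay factors. In Arabidopsis many of them are induced quickly and briefly by touch, wounding, cold or elicitors, and their transcripts are short-lived.

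Between 88.9% and 96.0% of the 21500 gene probes were well above background in a wild-type channel, and the median raw intensity lay between 304 and 371. After 481 probes with an outlier flag and 1460 dim probes were left out, 19559 genes remained, 1 probe each. All values below are normalised log2 intensities of a gene's own probe, given in the order Cy3 and Cy5, or differences between them on the log2 scale (OX7 pair minus OX17 pair). Levels of different genes are not compared, since probes differ in brightness. A gene was called different where the wild-type signal differed at least 2-fold the same way in both dyes.

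For a small share of genes the wild-type signals of the OX7 and OX17 pairs differed the same way in both dyes. In the OX7 pair 146 genes were higher (0.746% of the genes measured) and 228 were lower (1.17%), together 374 (1.91%), and 1 gene was 2-fold different in opposite directions in the 2 dyes. At 4-fold, 11 genes were higher and 39 lower, and at 8-fold 1 was higher and 7 lower, with 0 in opposite directions at either size. The differences of called genes ran up to 3.35 where the OX7 pair was higher and down to -3.58 where it was lower. Across the 19559 genes, the difference in Cy3 and the difference in Cy5 were correlated with r = 0.628 (Pearson) and rho = 0.501 (Spearman). The 2 dyes share RNA samples and probes but no slide, and genes are not independent replicates. The mean difference had an SD of 0.39 across genes, while the gap between dyes, halved, had one of 0.19. The signal itself had r = 0.977 between Cy3 and Cy5 of the OX7 pair and r = 0.976 for the OX17 pair, against 0.962 in Cy3 and 0.960 in Cy5 between the pairs.

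**Figure D1:**
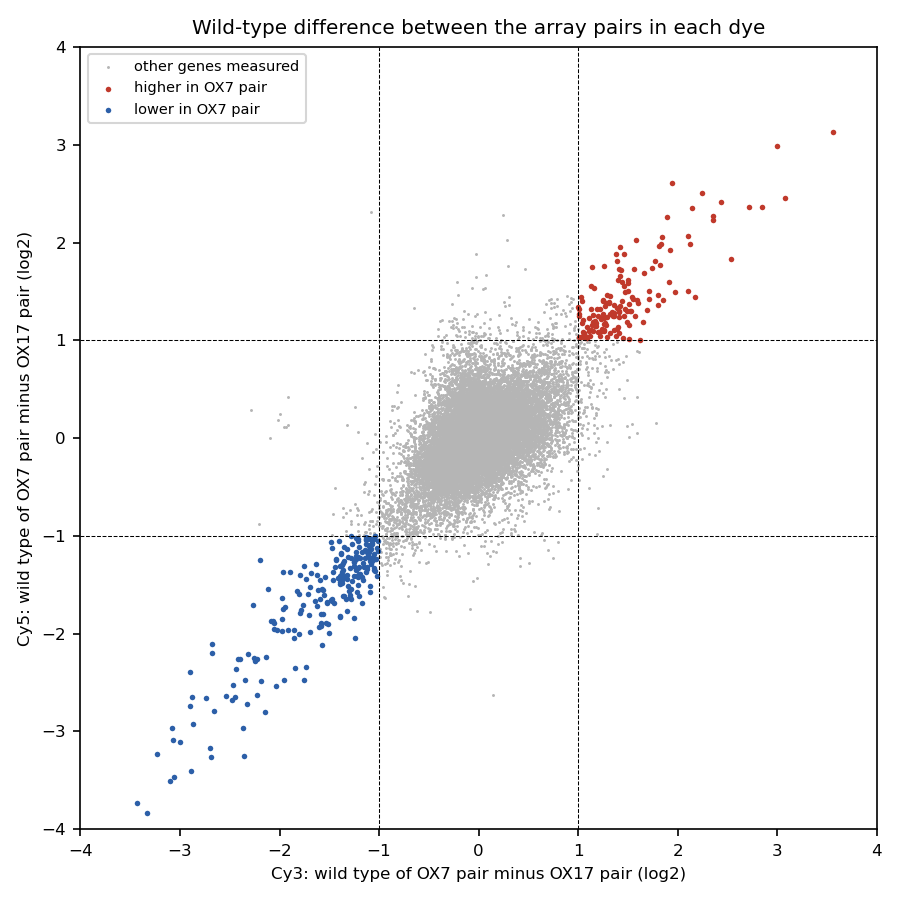
Each point is a gene, with the wild-type difference (OX7 pair minus OX17 pair, log2) in Cy3 on the horizontal axis and in Cy5 on the vertical axis, and dashed lines at 2-fold. The 146 genes higher in the OX7 pair lie at the upper right and the 228 lower ones at the lower left, with more genes far out on the lower side.

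Brighter genes were called more often. When genes were split into 4 equal groups by their mean wild-type signal, 0% of the dimmest group was called, then 1.19%, 2.39% and 4.07% of the brightest. The correlation between dyes was 0.33, 0.55, 0.67 and 0.76 in the same order. The background correction adds an offset of 50, which shrinks differences of dim probes. Just inside the threshold, the smaller of a gene's 2 dye differences was 1.00 in size for ATL15, AT4G09890, NCS1 and AT1G08790. Just outside it were MYBR1, AT4G16880, AT4G16563 and TAT3, the last at 0.99.

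Early stress genes had the lowest median of all 31 gene lists. Of 20 genes in the touch and early stress list, 16 were called lower in wild type of the OX7 pair, with 0 called higher, where 1.17% and 0.746% of all genes were, and the median difference was -2.10 against 0.01 over all genes measured. A further 2 members, CML37 and ZAT12, were lower in both dyes without reaching 2-fold in both, and ERF6 and WRKY18 were slightly higher in both. All 20 were above background in all 4 wild-type channels. The list was written with an earlier description of these data known, so its count is no independent support of its direction.

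Transcription factor genes stood at the head of this list. WRKY40 (AT1G80840), a WRKY factor induced by pathogens and wounding, had wild-type signals of 8.28 and 7.66 in the OX7 pair, against 11.38 and 11.17 in the OX17 pair, a difference of -3.31 (9.89-fold lower). RRTF1 (AT4G34410), an ERF factor that responds to reactive oxygen, had 7.45 and 7.11 in the OX7 pair and 10.34 and 10.52 in the OX17 pair. ZAT10 (AT1G27730, also STZ), a zinc finger repressor of stress responses, had 11.33 and 10.78 in the OX7 pair and 14.03 and 14.04 in the OX17 pair. For each of these, both OX7 pair values lay more than 2 log2 units below both OX17 pair values. WRKY53, a factor of defence and ageing, differed by -2.72 and WRKY33, a regulator of camalexin synthesis, by -2.11. Among ERF genes ERF11 differed by -1.98, ERF104 by -1.64 and ERF5 by -1.51. WRKY18, a close relative of WRKY40, did not share this pattern: it had 10.64 and 10.44 in the OX7 pair, against 10.27 and 10.12 in the OX17 pair.

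The calcium-binding touch genes followed the same direction. CML38 (AT1G76650), a calmodulin-like protein, had 7.98 and 7.95 in the OX7 pair and 10.72 and 10.61 in the OX17 pair, a difference of -2.70. TCH2 and TCH3, calmodulin-like proteins first found as touch-induced, differed by -1.75 and -1.74. TCH4 (AT5G57560), a cell wall xyloglucan endotransglucosylase of the same touch-induced set, had 8.47 and 8.52 in the OX7 pair and 10.81 and 10.99 in the OX17 pair. CML37 was at -1.34 in Cy3 and -0.99 in Cy5, just short of the threshold.

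The same list held 2 deadenylase and 2 CCCH zinc finger genes. CAF1a (AT3G44260), a deadenylase that shortens poly(A) tails, had 9.95 and 9.85 in the OX7 pair, against 12.83 and 12.50 in the OX17 pair. Its relative CAF1b differed by -2.34. The CCCH zinc finger genes SZF1 and SZF2, which respond to salt and elicitors, differed by -2.55 and -2.10. The groups did not overlap for any of these 4 genes.

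**Figure D2:**
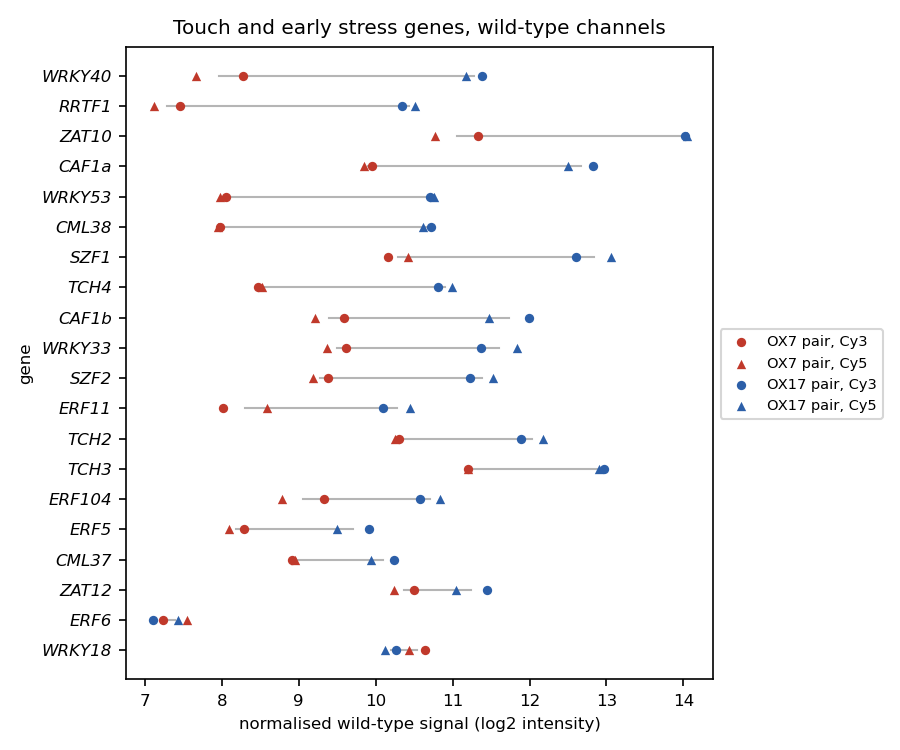
The horizontal axis gives the normalised wild-type signal (log2 intensity) and each row is a gene of the touch and early stress list; circles are Cy3 and triangles Cy5, red the OX7 pair and blue the OX17 pair, and grey lines join the pair means. Both red points lie left of both blue points in 18 rows, by -3.31 on average for WRKY40, and ERF6 and WRKY18 at the bottom are the exceptions.

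The 12 lowest genes of all 19559 lay mostly outside that list. The lowest were AT4G29780, whose function the files do not name, with 8.55 and 8.49 in the OX7 pair against 11.98 and 12.22 in the OX17 pair, and AT3G02840, likewise unnamed, with 7.01 and 6.72 in the OX7 pair against 10.34 and 10.56 in the OX17 pair. Both differed by -3.58. The protein phosphatase 2C genes, AT2G30020 and AT3G27140, differed by -3.26 and -2.89. DIC2 (AT4G24570), a mitochondrial dicarboxylate carrier, had 10.36 and 10.30 in the OX7 pair and 13.59 and 13.54 in the OX17 pair. AT2G24600 differed by -3.06. ORA47 (AT1G74930), an AP2/ERF activator of jasmonate synthesis genes, had 8.22 and 8.13 in the OX7 pair and 10.92 and 11.30 in the OX17 pair. CYP707A3 (AT5G45340), which breaks down abscisic acid, had 6.48 and 6.45 in the OX7 pair, above background in only 1 of the 2 arrays, and 9.56 and 9.42 in the OX17 pair. WRKY40, RRTF1, ZAT10 and CBF2 complete the 12.

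The cold regulators were farther apart than most of their targets. CBF2 (AT4G25470) and CBF1 (AT4G25490), transcription factors that switch on cold-responsive genes, were low in the OX7 pair: CBF2 differed by -3.07 in Cy3 and -3.09 in Cy5. CBF1 had 7.01 and 6.67 in the OX7 pair and 9.37 and 9.92 in the OX17 pair. CBF3 differed by -0.71 in Cy3 and -1.62 in Cy5 and was not called. Among known targets of these factors, COR15A differed by -0.35, COR15B by 0.01, RD29A by 0.00, KIN1 by -0.05 and KIN2 by 0.12. Dehydrin genes COR47 and ERD10 differed by -0.58 and -0.90. Of 14 cold response genes 2 were called, both lower, against 1.17% of all genes, with a median of -0.20. CBF1, CBF2 and CBF3 are close relatives, and cross-hybridisation between their probes was not tested.

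Genes higher in wild type of the OX7 pair came from several classes. The highest was AT1G13650, whose function the files do not name, with 11.77 and 11.51 in the OX7 pair against 8.20 and 8.38 in the OX17 pair, a difference of 3.35. AT1G80440, which encodes a kelch-repeat F-box protein, had 10.63 and 10.58 in the OX7 pair and 7.64 and 7.59 in the OX17 pair. Another kelch-repeat F-box gene, AT1G23390, had 12.52 and 12.38 in the OX7 pair and 10.08 and 9.96 in the OX17 pair. Some proteins of this family target enzymes of phenylpropanoid and flavonoid synthesis for breakdown. The CCCH zinc finger gene ATCTH (AT2G25900) differed by 2.77, the B-box factor gene BBX14 (AT1G68520) by 2.60 and the cell wall enzyme gene XTH31 (AT3G44990) by 2.54. AT1G70820, annotated as a putative phosphoglucomutase, differed by 2.37, AT5G59080 by 2.31 and the beta-glucosidase gene BGLU25 by 2.29. CML41, a calmodulin-like gene, had 12.43 and 12.87 in the OX7 pair and 10.49 and 10.27 in the OX17 pair, the direction opposite to CML38. UGT76B1, a glucosyltransferase acting on immune signalling compounds, differed by 2.25 and HAT2, an auxin-inducible homeodomain factor, by 2.18.

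Sugar and nitrogen response genes were found on both sides. Of 16 sugar starvation and dark genes, 2 were called higher and 3 lower, where 1.91% of all genes were called in either direction. TPS8 (AT1G70290) and TPS11 (AT2G18700), class II trehalose phosphate synthase genes, were the higher ones: TPS8 had 9.87 and 9.99 in the OX7 pair against 7.98 and 7.73 in the OX17 pair, and TPS11 differed by 1.57. EXL1 (AT1G35140), an EXORDIUM-like gene responsive to carbon starvation, had 8.00 and 7.69 in the OX7 pair and 10.90 and 10.43 in the OX17 pair. Of 17 nitrate response genes 2 were called higher, against 0.746% of all genes: LBD37 (1.49) and LBD39 (1.09), repressors of nitrogen-responsive genes. BT1 (AT5G63160), a BTB and TAZ domain protein gene, was the one called lower, with 10.25 and 10.06 in the OX7 pair and 12.51 and 12.30 in the OX17 pair. STP1 (AT1G11260), a monosaccharide transporter, was also called lower, at -2.06 in Cy3 and -1.89 in Cy5. The list medians were -0.22 for sugar and -0.01 for nitrate.

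Of 11 senescence genes 3 were called higher in the OX7 pair, where 0.746% of all genes were. NAC6 (AT5G39610, also ORE1), a NAC factor that promotes leaf ageing, had 10.19 and 10.08 in the OX7 pair, against 8.26 and 8.15 in the OX17 pair. NAP (AT1G69490), another NAC factor of ageing, differed by 1.11, and the sugar transporter gene SAG29 (AT5G13170) by 1.13. None was called lower, and the list median was 0.20. By any amount, 6 were higher and 2 lower in both dyes, against 33.1% and 34.2% of all genes. Members ranged from -1.10 to 1.92. WRKY53, counted above in the touch list, differed by -2.72.

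Chaperone genes were among the higher genes too. Of 15 heat shock genes 3 were called higher and 1 lower, against 0.746% and 1.17% of all genes, with a median of 0.07. HSP70 (AT3G12580), a cytosolic chaperone, had 11.41 and 11.67 in the OX7 pair and 9.82 and 10.26 in the OX17 pair. HSP90.1 (AT5G52640), its partner chaperone, had 11.74 and 12.27 in the OX7 pair and 10.31 and 10.56 in the OX17 pair. ROF2 (AT5G48570), an immunophilin that binds HSP90, differed by 1.63. The member called lower was DREB2A, an activator of heat and drought genes, at -1.16.

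Hormone lists held 2 to 4 called genes each where any were called. In the jasmonate list 3 of 26 were called lower, against 1.17% of all genes, and 0 higher, with a median of -0.39. By any amount, 15 of 26 were lower in both dyes, against 34.2% of all genes. Another 4 were higher in both dyes, against 33.1% of all genes, VSP2 the most at 0.72. The 3 called lower were the plant defensin gene PDF1.2 (AT5G44420), with 10.49 and 10.70 in the OX7 pair against 12.80 and 12.92 in the OX17 pair, the master regulator gene MYC2 (-1.61) and the synthesis gene LOX3 (-1.58). In the salicylic acid list 2 of 29 were called higher, against 0.746% of all genes: NIMIN1 (1.69), which binds the coactivator NPR1, and LURP1 (1.05), a defence gene. Of the same 29, 16 were higher in both dyes by any amount, against 33.1% of all genes, and the median was 0.25. Of 26 abscisic acid and dehydration genes 17 were lower in both dyes by any amount, against 34.2% of all genes. Another 5 were higher, against 33.1% of all genes, and the median was -0.19. Called genes were 2 higher and 2 lower, against 0.746% and 1.17% of all genes. In that list P5CS1 (1.49), a proline synthesis enzyme, and RD20 (1.16), a caleosin, were called higher, while CYP707A3 (-3.02, with 1 of its 2 OX7 pair spots not well above background) and AFP1 (-1.29), a negative regulator of abscisic acid signalling, were called lower. Auxin genes HAT2 and IAA1 (1.18), an auxin-induced repressor, were the 2 called of 10, against 1.91% of all genes.

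No member of the clock lists reached 2-fold in both dyes, and the morning list had the second lowest median of the lists. Clock-related genes outside these lists were not counted here, but some were called lower: RVE2 differed by -1.67 and ASG4 by -1.43. None of 12 morning and midday genes and none of 11 afternoon and evening genes was called, where 1.91% of all genes were. In lists this short, 0 calls say little. The central morning factors LHY and CCA1 were lower in the OX7 pair: LHY had 12.11 and 12.46 there, against 12.96 and 13.32 in the OX17 pair, and CCA1 had 12.19 and 12.26 against 12.73 and 13.17. PRR9, a repressor that follows them in the morning, differed by -0.62. PRR7, the next repressor, ran the other way, with 8.69 and 8.55 in the OX7 pair and 7.55 and 7.74 in the OX17 pair. Of the morning list 9 of 12 were lower in both dyes by any amount, against 34.2% of all genes, and the median was -0.42. For the evening genes TOC1, GI and FKF1 the differences were -0.06, 0.22 and 0.05, and the list median was -0.06.

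Of 20 flavonoid and anthocyanin genes measured 2 were called lower, where 1.17% of all genes were, and both encode regulators. HY5 (AT5G11260), a bZIP factor that promotes light-dependent development, had 9.38 and 9.18 in the OX7 pair, against 11.42 and 11.72 in the OX17 pair. MYB111 (AT5G49330), an activator of flavonol synthesis, differed by -1.59, with 1 of its 2 OX7 pair spots not well above background. The remaining 18 flavonoid and anthocyanin genes measured were not called, and that list's median was 0.03. UGT78D2, a glycosyltransferase gene that is not in this list, was called lower at -1.74. MYB51, a regulator of indole glucosinolates, differed by -1.10. It was the 1 called of 16 glucosinolate synthesis genes measured, where 1.17% of all genes were called lower. In contrast, 13 of the 16 were higher in both dyes, against 33.1% of all genes, with a list median of 0.35.

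The expansin and XTH, iron, sulphur and vascular lists held 1 or 2 called genes each, where 1.91% of all genes were called. XTH4 differed by -1.53 and XTH24 by -1.34, the 2 called of 15 expansin and XTH genes in the list, while XTH31, which is not in it, was higher at 2.54. The iron list had NAS1 (1.61), a nicotianamine synthase, and FER1 (1.35), a ferritin, called higher among 14. SDI1 (1.33), a gene induced by sulphur limitation, was the 1 called of 11 in its list. The sucrose exporter gene SWEET12 (-1.45) was the 1 called of 9 vascular genes. No member was called among the lists for cytokinin, brassinosteroid, phosphate, copper, cell division, phase change or aquaporins. In the cytokinin list 7 of 9 genes were higher and 2 lower in both dyes, against 33.1% and 34.2% of all genes. Its median of 0.38 was the highest of the 31 lists. ARR7 at 0.92 and RR16 at -0.99 were its members farthest out. The vacuolar aquaporin gene TIP2;1 came near, at -2.21 in Cy3 and -0.88 in Cy5.

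**Figure D3:**
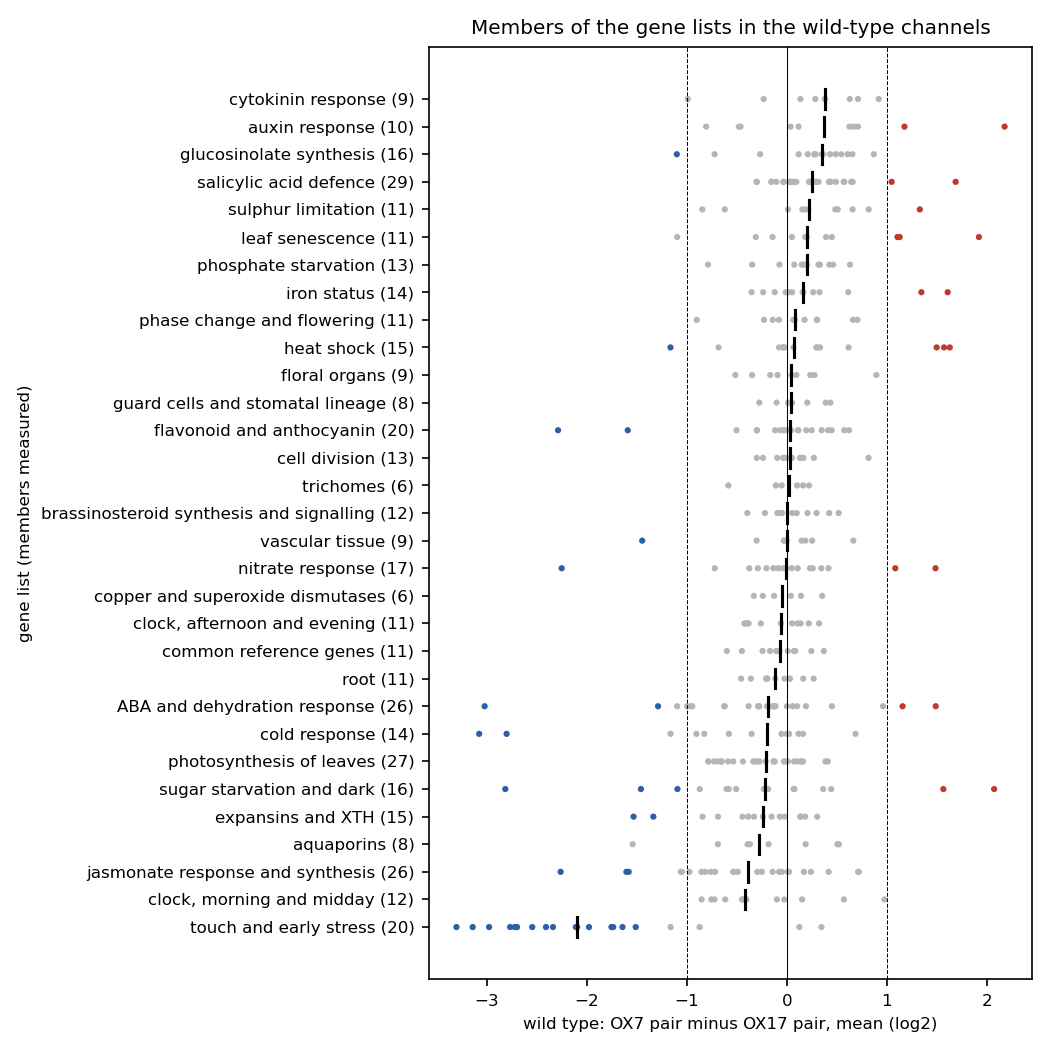
Rows are the 31 gene lists with the number of members measured, and the horizontal axis is the mean wild-type difference (OX7 pair minus OX17 pair, log2); red and blue points are members called higher and lower, grey points are not called, black bars are medians and dashed lines mark 2-fold. The touch and early stress list has its median at -2.10, while the other medians lie between -0.42 and 0.38.

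Marker lists of leaf and of other tissues were compared between the pairs. All 30 photosynthesis genes on the array were above background in all 4 wild-type channels, and 27 were unflagged. Of these, 0 were called, where 1.91% of all genes were. Their median difference was -0.21, which turned to 0.26 when average intensities were scaled in place of quantile normalised, to 0.22 with no step between arrays and centred differences, and to 0.08 when wild-type channels were quantile normalised alone, so no direction is given. Root (11 measured), floral organ (9), guard cell (8) and trichome (6) markers had 0 called and medians of -0.12, 0.05, 0.04 and 0.03. With 1.91% of all genes called, 0 calls in lists this short say little. Most of these were also above background in all 4 channels: 10 of 12 root, 9 of 9 floral organ, 9 of 9 guard cell and 6 of 6 trichome genes. Detection therefore does not tell tissues apart here. SEP1, a floral identity gene, was the floral member farthest out, at 1.23 in Cy3 and 0.57 in Cy5. In whole leaves, fewer cells of a type and less RNA per cell cannot be told apart. Of 11 common reference genes 0 were called, against 1.91% of all genes, with UBQ10 at 0.07, PP2AA3 at -0.07 and ACT8 farthest out at -0.60.

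Part of the wild-type difference was shared with the transformant RNA on the same arrays and part was not. Of the 146 genes higher in wild type of the OX7 pair, 53 (36.3%) were also at least 2-fold higher in the OX7 than in the OX17 transformant in both dyes, where 1.82% of all genes were, and 4 were 2-fold the opposite way. Of the 228 lower genes, 61 (26.8%) were also 2-fold lower in the OX7 transformant, where 1.93% of all genes were, and 11 were 2-fold the opposite way. The median transformant difference was 0.82 for the higher genes, whose median wild-type difference was 1.35, and -0.55 for the lower genes, at -1.44 in wild type. Wild-type and transformant signals of one array come from the same spots. Set across slides instead, the wild-type difference of replicate 1 and the transformant difference of replicate 2 had r = 0.243, and the other way round r = 0.155, over 19559 genes.

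Some genes differed in wild type and transformants alike. AT2G24600 was lower in the OX7 pair by -3.06 in wild type and by -2.72 between transformants, so its ratios to wild type stayed at 0.39 in OX7 and 0.05 in OX17. ATCTH was at 2.77 in wild type and 3.33 between transformants. PDF1.2 was at -2.26 in wild type and -4.70 between transformants, AACT1 (AT5G61160) at -2.50 and -3.66, and PLA2A, a patatin-like lipase gene, at -1.22 and -2.93. HBI1, a bHLH growth factor, was at 1.56 and 3.16, and AT2G20670 at 1.51 and 3.84.

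Others differed in wild type with the transformants almost level. TCH2 had a wild-type difference of -1.75 and a transformant difference of -0.03. STP1 was at -1.98 and -0.03, PUB23, a U-box ubiquitin ligase of immune signalling, at -1.79 and 0.03, and PUP14, a purine permease, at -1.39 and 0.03. AT3G45260, a zinc finger protein gene, was at 1.23 and 0.02. For CBF2 the wild-type difference was -3.08 and the transformant difference -0.06, though the transformants differed by 0.37 in one dye and -0.49 in the other. For TCH4, ORA47 and XTH4 the transformants differed the opposite way to wild type, by 1.56, 1.62 and 1.53. The heat shock genes did too: HSP90.1 stood at 1.57 in wild type and -1.53 between transformants, and ROF2 at 1.63 and -1.31.

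**Figure D4:**
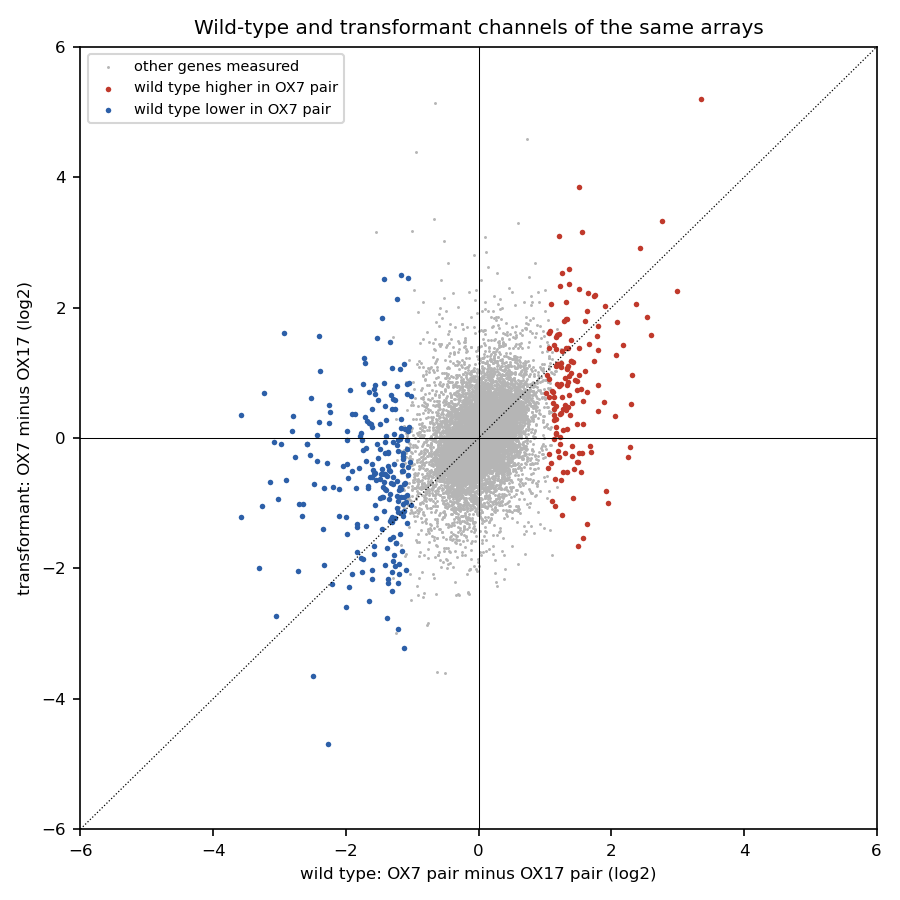
Each point is a gene, with the mean wild-type difference (OX7 pair minus OX17 pair, log2) on the horizontal axis and the mean transformant difference (OX7 minus OX17, log2) on the vertical axis; the dotted line marks equal differences. Called genes spread from the dotted line through the horizontal axis into the opposite quadrants, with 53 of 146 higher and 61 of 228 lower genes 2-fold the same way in the transformants.

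These wild-type differences enter every ratio of transformant to wild type. A ratio difference between OX7 and OX17 equals the transformant difference minus the wild-type difference, so the following counts are partly arithmetic. There were 1088 genes whose log2 ratio differed by at least 1 between OX7 and OX17 without overlap of arrays, 577 higher in OX7 and 511 lower. In 164 of them (15.1%) wild type differed 2-fold in both dyes in the direction that produces the ratio difference, in 438 (40.3%) the transformants did, in 15 both did, and in 501 neither reached 2-fold in both dyes. For the touch and early stress list, the median ratio was 0.56 in OX7 and -0.54 in OX17.

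The ratio of ORA47 was 1.37 in OX7 and -3.18 in OX17. In DIC2 it was 0.83 in OX7 and -3.09 in OX17, and in AT4G29780 it was 1.16 and -2.78. All 3 were therefore above wild type in OX7 and below it in OX17. Wild type itself differed between the pairs by -2.93, -3.23 and -3.58 in these genes, more than the transformants did, by 1.62, 0.69 and 0.36. These genes were taken from those with the lowest wild-type difference, which enters the ratio with opposite sign. The choice therefore partly fixes both the signs and this comparison.

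**Figure D5:**
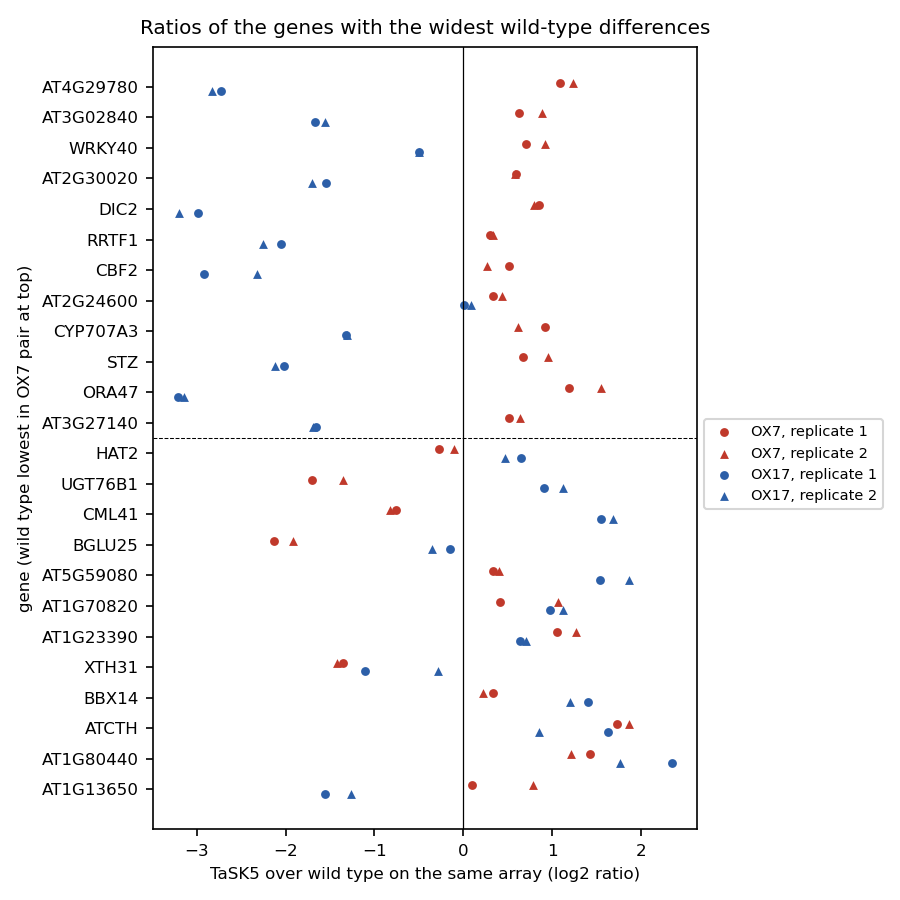
The horizontal axis is the log2 ratio of TaSK5 over wild type on each array and rows are the 12 genes lowest and the 12 highest in wild type of the OX7 pair, above and below the dashed line; red is OX7, blue OX17, circles replicate 1 and triangles replicate 2. Of the 24 genes 15 have both OX7 points on one side of 0 and both OX17 points on the other, for example ORA47 at 1.37 in OX7 and -3.18 in OX17. The genes were chosen by their wild-type difference, which partly fixes these signs.

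The wild-type samples were also exchanged between the pairs. With its own wild type, OX7 had 91 genes at least 2-fold higher and 18 lower on both arrays; set against the wild type of the OX17 pair in the same dye, it had 231 higher and 185 lower, of which 61 and 7 were in both sets. For OX17 the own wild type gave 483 higher and 376 lower and the wild type of the OX7 pair 486 and 331, with 276 and 144 shared. Exchanged values cross slides, while own ratios lie within a spot, so the 2 sets differ in error as well. Of the 46 genes at least 2-fold higher than their own wild type on all 4 arrays, 23 were so with exchanged wild types too, and of the 6 lower genes 4 were. Among these 46, wild type was called higher in the OX7 pair for 6, where 0.746% of all genes were: AT1G80440, TPS8, AT1G49500, AT3G59940, AT2G34810 and RD20. RD20 (AT2G33380) had wild-type signals of 11.87 and 11.70 in the OX7 pair and 10.70 and 10.55 in the OX17 pair, and ratios of 1.44 in OX7 and 3.23 in OX17.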

How the data were processed

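Leaf RNA (500 ng per labelling) of 2 transformants and of wild type was measured on 4 two-colour arrays. Per the file headers, Agilent Feature Extraction 7.5.1 gave the deposited mean and local background intensity of each spot, and processed intensities after spatial detrending and lowess dye normalisation. The submitters' processing notes name limma. The authors' table of log2 ratios was not used here, since it holds no separate channels.

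Here normexp (offset 50) removed background, loess fitted without 1075 control spots levelled the dyes, and average intensities were made alike by quantiles. Channel signals followed from average and ratio (limma 3.58.1, R 4.3.3). These steps hide any shift of most transcripts and shrink differences of dim probes. Genes with an outlier flag on any array were dropped and saturated spots retained. A gene had to be well above background in both wild-type channels of at least one pair. Names came from a gene table of TAIR10.1, which held 21191 loci and lacked 309. Coordinates are left out, as the probes' build is not given in the sources used here. The steps were checked on simulated data, in which only brighter genes differed, by more than 2-fold and in wild type alone. Recovery of dim genes, of differences near 2-fold and of transformant differences was therefore not checked.

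Array number limits the precision. Named genes were the 12 highest and 12 lowest called, up to 3 members of each of 31 lists (469 entries, 9 not on the array), the 5 called genes each way with the smallest and the 5 with the largest matching transformant difference, and 4 genes on each side of the threshold. All members, lists and rules were chosen with earlier results of these data known. Further members of the touch, cold and other lists, genes named for their ratios, and gene families were chosen after their values were seen.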

Additional observations from a re-analysis of the deposited data

Results flagged for a closer look

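Among the 24 genes with the widest wild-type differences, 15 had a ratio of TaSK5 over wild type with one sign on both OX7 arrays and the other sign on both OX17 arrays. This difference between ratios was not tested, since each rests on 1 RNA pair. The genes were chosen by their wild-type difference, which enters the ratio with opposite sign, so the choice partly fixes these signs. The transformants themselves differed little in some, by -0.06 in CBF2 and -0.10 in ZAT10. The ratios of OX7 minus OX17, on the log2 scale, were largest for ORA47 (4.55), AT4G29780 (3.94), DIC2 (3.92) and CBF2 (3.02). ZAT10, listed as STZ, followed at 2.88, then RRTF1 at 2.47, AT3G02840 at 2.37, AT3G27140 at 2.26, AT2G30020 at 2.22, CYP707A3 at 2.08 and WRKY40 at 1.31. All 11 were above wild type in OX7, below it in OX17, and lower in wild type of the OX7 pair.

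AT1G13650 also stood above wild type in OX7 and below it in OX17, by 1.86, although its wild type was higher in the OX7 pair. In CML41 (-2.42), UGT76B1 (-2.54) and HAT2 (-0.75) the ratio was below 0 in OX7 and above 0 in OX17, and wild type was higher in the OX7 pair. The part that wild type had in any of these ratios was not tested beyond the channel values given.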

How the results depend on the processing

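Counts of genes higher and lower in wild type of the OX7 pair were 276 and 363 with Agilent processed signals, 483 and 653 at 1.5-fold, and 11 and 39 at 4-fold. With no step between arrays they were 19 and 135, so higher genes made up 12.3% of calls against 39.0%. That setting shifted the median of all genes by -0.80 in Cy3 and 0.31 in Cy5, and its count of ratio differences with a wild-type part was 92. Relative to this shift, an alternative chosen after seeing the data, 154 were higher and 216 lower, 129 and 196 of them shared with the genes called above. Leaving out 1 dye orientation gave 288 to 305 higher and 298 to 361 lower genes (305 and 361 without replicate 1), since agreement of dyes was then not asked for. The correlation between dyes was 0.470 with processed signals, 0.653 with no background correction, 0.479 with median centring, 0.462 with no step between arrays and with scaled averages, 0.619 with wild-type quantiles, 0.610 with no filter, 0.647 with probes above background in all 4 channels and 0.628 without saturated spots. The cause was not tested. Every other count stayed within 1.5 times.

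Of 135 named genes under 12 alternatives, 5 of 1614 values changed sign. These were the photosynthesis genes PSBO1, GAPA and PETE2 under scaled averages or centred differences, and AUR1. The 886 values of called genes had 0 changes of sign, which says little, since these genes were chosen for large differences. By size, 18 values of called genes fell under 2-fold. Median centring kept 137 of all 146 higher calls and 169 of all 228 lower ones. With no step between arrays 19 and 126 were kept. Of 372 list medians 45 changed sign, but 0 of the 72 for the 6 lists whose median was at least 0.3 in size. The touch and early stress median was between -2.32 and -1.97. No paired analysis was possible because the result comes from no test, and differences were already taken within each dye orientation. A search for promoter motifs was not run, since no sequences were used here. Dim probes limit what could be called.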

Other observations

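Gene families, grouped after the data were seen by the letters of their symbols (68 families with at least 15 members measured), differed in how many members were called, where 1.91% of all genes were. Of 22 ERF genes 5 were lower in wild type of the OX7 pair and 0 higher, with a median difference of -0.32. Of 20 PUB genes, U-box ubiquitin ligases, 3 were lower, among them PUB22 and PUB23. Of 28 AGP genes, arabinogalactan proteins of the cell surface, 3 were lower. The largest was AGP1, with 8.03 and 8.25 in the OX7 pair and 10.93 and 10.64 in the OX17 pair. Of 20 KCS genes, enzymes of very-long-chain fatty acid synthesis, 2 were lower and the median was -0.31. Some families had calls both ways: the 16 BBX genes had 1 higher and 1 lower, the 53 UGT genes 3 and 3, and the 29 XTH genes 1 and 2. The 64 WRKY genes had 5 lower and 1 higher with a median of -0.04, and the 108 MYB genes had 6 lower and 0 higher with a median of -0.01.

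Other families held many members of one sign in both dyes, where 33.1% of all genes were higher and 34.2% lower in both. Of 21 HSP genes 15 were higher in both dyes, 2 of them 2-fold, with a median of 0.56. Ribosomal protein genes named RPL and RPS were higher in both dyes in 15 of 20 and 16 of 23, with medians of 0.15 and 0.17. Of 21 RABA genes, small GTPases of membrane traffic, 15 were lower in both dyes, with a median of -0.30. The 206 CYP genes had 1 lower and 0 higher, with a median of 0.01. The checks under other processing covered named genes and lists, and family values were not among them. Among list medians 45 of 372 changed sign there, so small family medians may depend on the processing.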
